A study of Mus musculus with 6 samples.

Results

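The genes described here are regulators of the BCL2 family, which decide whether the outer mitochondrial membrane is permeabilised during apoptosis. The rule named 10 genes and took every probe set whose gene symbol in the array annotation was one of them. Of the 10 genes, 9 were matched to probe sets, 29 in all, out of 18193 genes measured. They were 3 pro-survival genes (Bcl2, Bcl2l1 and Mcl1), the pore-forming effector Bak1, and 5 BH3-only genes (Bbc3, Pmaip1, Bcl2l11, Bid and Bad). The other effector, Bax, was matched to no probe set in the annotation used and was not analysed here.

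RNA came from CT26 cells, a line derived from a colon carcinoma of BALB/c mice. The 3 control samples carried the vector pU6-m3 without an insert, and the 3 shSep15 samples carried the same vector with a hairpin against Sep15, a selenoprotein gene now named Selenof whose product resides in the endoplasmic reticulum. Each sample was hybridised to 1 Affymetrix mouse expression array. The comparison addresses which transcripts differ between cells with this 1 hairpin construct and cells with the vector without an insert. No control sample carried another hairpin, so loss of Sep15 and other effects of the hairpin cannot be told apart here. Whether the samples came from separate transfections, and whether the cells were clones or pools, is not given in the sources used here, so the p-values measure the spread between these samples, which may be technical.

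Cells are kept alive by BCL2-like proteins, which hold the effectors BAX and BAK and the BH3-only proteins in inactive complexes. BH3-only proteins are induced or activated by stress, each through its own route, and release or directly switch on the effectors, which then form pores and let cytochrome c escape. Carcinoma cells often depend on MCL1 or BCL-XL, the long product of Bcl2l1, and the transcription of BH3-only genes is one of the steps at which stress and damage signals enter this balance.

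The stretch of Sep15 mRNA that the hairpin was built on is shown because it is the intended difference between the groups.

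Sep15 target: acagaagagttccatttaa

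Bbc3 had the greatest change of the family, and Bcl2l11, like other BH3-only genes, did not pass the test. A stretch before a start site of each is shown because both hold the letters described next. Of 15 RefSeq promoter windows of 9 of the 10 named genes (assembly GRCm38.p6, 250 bases before to 50 after a start), only these held the letters GTAAACA, the core that forkhead factors of the FOXO type recognise, on either strand. Capitals mark those letters or their complement (TGTTTAC). The first stretch is 1 of 3 windows of Bbc3 (chr7:16310011-16310260, plus strand) and the second 1 of 2 windows of Bcl2l11 (chr2:128125788-128126037, plus strand), each printed up to the base before the start.

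Bbc3: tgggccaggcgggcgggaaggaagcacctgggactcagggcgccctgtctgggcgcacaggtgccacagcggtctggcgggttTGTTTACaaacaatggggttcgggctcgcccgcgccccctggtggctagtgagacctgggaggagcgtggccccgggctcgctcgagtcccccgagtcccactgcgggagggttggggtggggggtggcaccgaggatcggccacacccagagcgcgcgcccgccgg

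Bcl2l11: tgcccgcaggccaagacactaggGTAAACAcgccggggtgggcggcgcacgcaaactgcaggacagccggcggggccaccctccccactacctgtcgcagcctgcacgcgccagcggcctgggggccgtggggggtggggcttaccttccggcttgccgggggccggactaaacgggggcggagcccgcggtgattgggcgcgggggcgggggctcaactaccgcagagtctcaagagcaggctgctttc

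Counted from the start site, the letters lay at position −167 in Bbc3 and −227 in Bcl2l11, and 3.65% of all 32851 promoter windows held them. The EGR core, GCGNGGGCG, was found in 3 of the 15 windows, 2 of Bbc3 and 1 of Bcl2l11, and in 5.55% of all windows. Both printed stretches hold it too, unmarked, at position −141 in Bbc3 and −50 in Bcl2l11. The E-box CACGTG was in 2 of the 15, 1 of Bbc3 and 1 of Bax, against 7.15% of all, and the CRE half-site TGACG in 3, of Bcl2, Mcl1 and Bbc3, against 20.8%. The GC box GGGCGG was in 10 of the 15 and in 35.7% of all. A short kappa B core was in 3 of the 15, of Bcl2l1, Mcl1 and Bbc3, against 1.63% of all. The p53 half-site was in 1, of Bax, against 8.36%. The composite of C/EBP and ATF factors, TGATGNAA, and a short E2F core, TTTCCCGC, were in 0 of the 15, against 3.97% and 1.07% of all windows. Both strands were searched for each, and the GC box and the EGR core can overlap. Of the Bbc3 windows, 2 overlap in part, and GC boxes in their shared stretch count for both. A match is a string of letters, not a measured site.

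The groups and the arrays were checked first. Selenof read 12.41, 12.44 and 12.35 (log2) on the control arrays and 9.34, 9.59 and 9.50 on the shSep15 arrays with its brighter probe set; its other probe set lay below background in both groups and gives no reading. Background here is a log2 value of 6.02, the 95th percentile among 78 olfactory and vomeronasal receptor probe sets. Of the markers of colon epithelium, 5 of 10 lay above it: Epcam, Krt8, Krt18, Krt20 and Lgals4. Cdh1, Cdx2, Krt19, Muc2 and Vil1 did not, while 7 of 8 mesenchymal markers did. Of 7 measured leukocyte markers, 4 lay above it: Cd3e, Cd68, Csf1r and Lyz2. Cd52, Itgam and the defining marker Ptprc did not, and Ptprc read 4.14 in control and 4.23 in shSep15 cells. The mean level of the leukocyte list was 5.89 to 6.09 on the control and 5.67 to 5.78 on the shSep15 arrays. Of 6 endothelial markers, 2 lay above it. The other lists also had lower means on the shSep15 arrays: 5.41 to 5.62 against 6.01 to 6.15 for colon epithelium, 9.09 to 9.49 against 9.89 to 9.96 for mesenchyme and 5.09 to 5.15 against 5.22 to 5.45 for endothelium. Members of a list did not all go one way: Krt18 averaged 6.65 in control and 4.48 in shSep15 cells and Krt20 8.28 and 6.15, while Epcam stood at 7.59 and 7.55, and Col1a1, of the mesenchymal list, at 9.33 and 10.65. The part of these differences in the results was not tested. Control 3 stood apart with a 3′ 18S ribosomal RNA probe set at 8.31, against 6.01 to 6.53 on the other 5 arrays. shSep15 3 stood apart with the interferon-stimulated gene Usp18 at 10.69, against 6.17 to 7.58 on the others. Where leaving out either array turned the direction of a family gene or ended or gave a call, the value without it is given with that gene.

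Within the family, 1 BH3-only gene fell steeply, an effector and a pro-survival gene rose by less, and 6 genes did not pass the test. Bbc3 was lower in shSep15 cells, while Bak1 and Mcl1 were higher (limma, adjusted p under 0.05 over all 45037 probe sets; a gene is read by its brightest probe set). So 3 of 9 genes changed, where 25.0% of all genes did, and among the 8 family genes above background it was 3 of 8, where 39.2% of all such genes did. The share of the family that changed was thus near that of the genome at large. By direction, 2 of 9 rose against 12.2% of all genes (19.2% of those above background), and 1 of 9 fell against 12.8% (20.0%). The groups did not overlap in 5 of the 9 genes, against 38.1% of all genes, and in 5 of the 8 above background, against 55.2%. Of the 29 probe sets, 6 passed (19.4% of all probe sets did), 4 higher (9.71%) and 2 lower (9.66%), and in 11 the groups did not overlap (31.7%). Without control 1 or without shSep15 2, 3 of the 29 passed. With quantile normalization 8 passed, and without the eBayes trend 4 did. The median log2 difference of the 9 was 0.08, against 0.01 over all genes, and their median absolute difference was 0.22, against 0.16. Among genes above background the order was the other way, 0.25 for the family and 0.27 for all such genes.

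**Figure D1:**
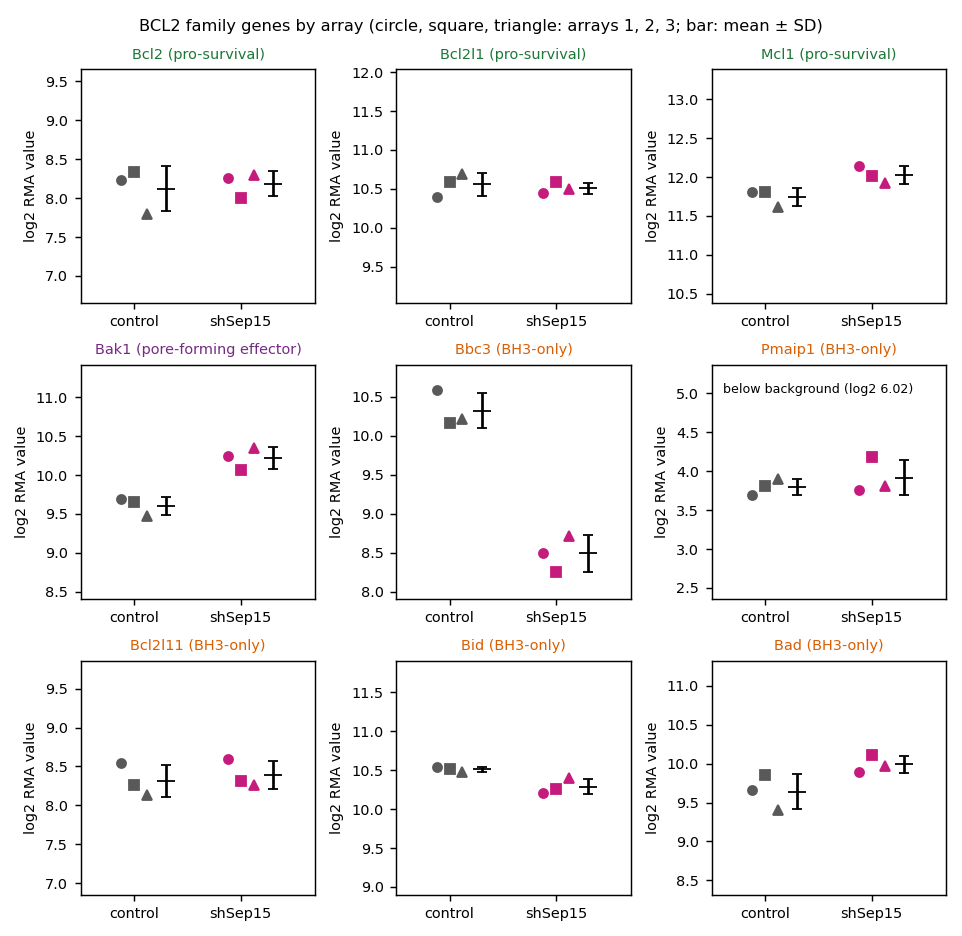
log2 RMA values of the 9 BCL2 family genes on the 3 control (grey) and 3 shSep15 (pink) arrays, each gene read by its brightest probe set, with the mean and SD beside the points; every panel spans the same log2 range. Bbc3 is set apart downward, from 10.32 to 8.49, Bak1 upward, from 9.60 to 10.22, and Pmaip1 lies below background.

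Bbc3 encodes PUMA, a BH3-only protein that binds every pro-survival member and is best known as a transcriptional target of p53. It read 10.58, 10.17 and 10.22 on the control arrays and 8.50, 8.25 and 8.72 on the shSep15 arrays. All 3 shSep15 arrays lay below all 3 control arrays, and the gap between the groups was wider than the whole range within either. The mean went from 10.32 ± 0.23 (SD, n = 3) to 8.49 ± 0.23 (SD, n = 3), a log2 difference of −1.84 (SE 0.15, limma adjusted p = 4.79e-05), which left 28.0% of the control signal. Of 11124 genes above background, 139 had a lower difference, and 1.76% of them had one as large in either direction. Bbc3 has 1 probe set, so no second reading of the gene was available. Its difference stayed between −1.95 and −1.71, past the threshold, under all 13 alternatives tried.

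The 20 nearest genes above background around Bbc3 on chromosome 7 had a median difference of −0.18, with 8 lower and 4 higher, and the median of the chromosome was 0.00. By likeness of pattern, the genes closest to Bbc3 over the 6 arrays were Otud3, Rnf146, Snx2, Ikbkb and Fam43a, with Pearson r of 0.999 each. Correlations this high were common: 1192 of 11123 genes had an r above 0.95 with Bbc3. The 6 points fall into 2 groups, so these values mainly repeat the group difference.

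Of the other BH3-only genes, Bid was lower on both of its bright probe sets, by much less than Bbc3. Bid encodes a protein that caspase-8 cleaves, and its fragment carries the death receptor signal to mitochondria. Its brightest probe set read 10.54, 10.52 and 10.48 on the control arrays and 10.20, 10.26 and 10.40 on the shSep15 arrays. The groups did not overlap, but the gap was narrow, and the difference of −0.22 (SE 0.08) did not pass the test (limma adjusted p = 0.102, 95% interval −0.40 to −0.04). A second probe set passed it at −0.44 (SE 0.12, limma adjusted p = 0.0298), with 9.59, 9.27 and 9.66 in control and 9.10, 8.98 and 9.10 in shSep15 cells. That call ended without any 1 of control 1, control 3 and the 3 shSep15 arrays (limma adjusted p from 0.0699 to 0.108) and with array weights (0.0555). The third probe set, near background at 5.93 and 6.13, differed by 0.21 and did not pass the test; without control 3 the difference was −0.05.

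Bad encodes a BH3-only protein that growth factor signals keep phosphorylated and bound to 14-3-3 proteins. It read 9.66, 9.86 and 9.40 on the control arrays and 9.90, 10.11 and 9.97 on the shSep15 arrays. Every shSep15 array exceeded every control array, though shSep15 1 and control 2 nearly touched. The difference of 0.35 (SE 0.13) did not pass the test (limma adjusted p = 0.0899, 95% interval 0.07 to 0.64). Its other probe set differed by 0.26 (limma adjusted p = 0.126), again without overlap. With the mean of both probe sets the gene passed (0.31, limma adjusted p = 0.0468), as it did without control 2 (0.46, limma adjusted p = 0.0417). Without control 3 the difference of the brightest probe set was 0.23 (limma adjusted p = 0.230).

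Bcl2l11 encodes BIM, which binds all pro-survival members and is induced when growth factor signals are withdrawn, among other routes by FOXO factors. Its 5 probe sets were all above background, and 0 of them passed the test by limma (0 also at an unadjusted p under 0.05); their differences ran from −0.38 to 0.18 and did not share a direction. The brightest read 8.54, 8.26 and 8.14 in control and 8.60, 8.32 and 8.26 in shSep15 cells, ranges that overlap for the most part. Its difference was 0.08 with a 95% interval of −0.25 to 0.40, so changes within that interval are not excluded; without control 3 it was −0.01. Another Bcl2l11 probe set was lower in shSep15 cells without control 3 (−0.62, limma adjusted p = 0.0404), which stood at 6.46 where its fellow control arrays stood at 7.25 and 7.13; with all arrays it differed by −0.38 (limma adjusted p = 0.305).

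Pmaip1 encodes NOXA, a BH3-only protein that binds mainly MCL1. It was below background on every array, between 3.70 and 3.90 in control and between 3.76 and 4.18 in shSep15 cells, so its level cannot be compared between the groups.

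Among the effectors, Bak1 encodes BAK, which sits in the outer mitochondrial membrane and forms pores once released from MCL1 and BCL-XL. Its brightest probe set read 9.69, 9.65 and 9.47 on the control arrays and 10.24, 10.06 and 10.35 on the shSep15 arrays. The 3 shSep15 arrays all lay above the 3 control arrays. The mean went from 9.60 ± 0.12 (SD, n = 3) to 10.22 ± 0.15 (SD, n = 3), a log2 difference of 0.61 (SE 0.11, limma adjusted p = 0.00300), or 1.53-fold. A second Bak1 probe set, of the kind whose probes may also match other transcripts, did not follow: it read 9.16, 8.88 and 8.94 in control and 8.95, 8.23 and 9.45 in shSep15 cells. The shSep15 arrays spread over 1.21 on it and enclosed the control arrays, and the difference was −0.12 (limma adjusted p = 0.827, 95% interval −0.70 to 0.46), with 0.20 without shSep15 2 and −0.40 without shSep15 3. The rise of Bak1 therefore rests on 1 of its 2 probe sets, and the mean of both gave 0.25 (limma adjusted p = 0.365). The median of genes above background on chromosome 17, which carries Bak1, was 0.16, and that of its 20 nearest such genes 0.01.

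**Figure D2:**
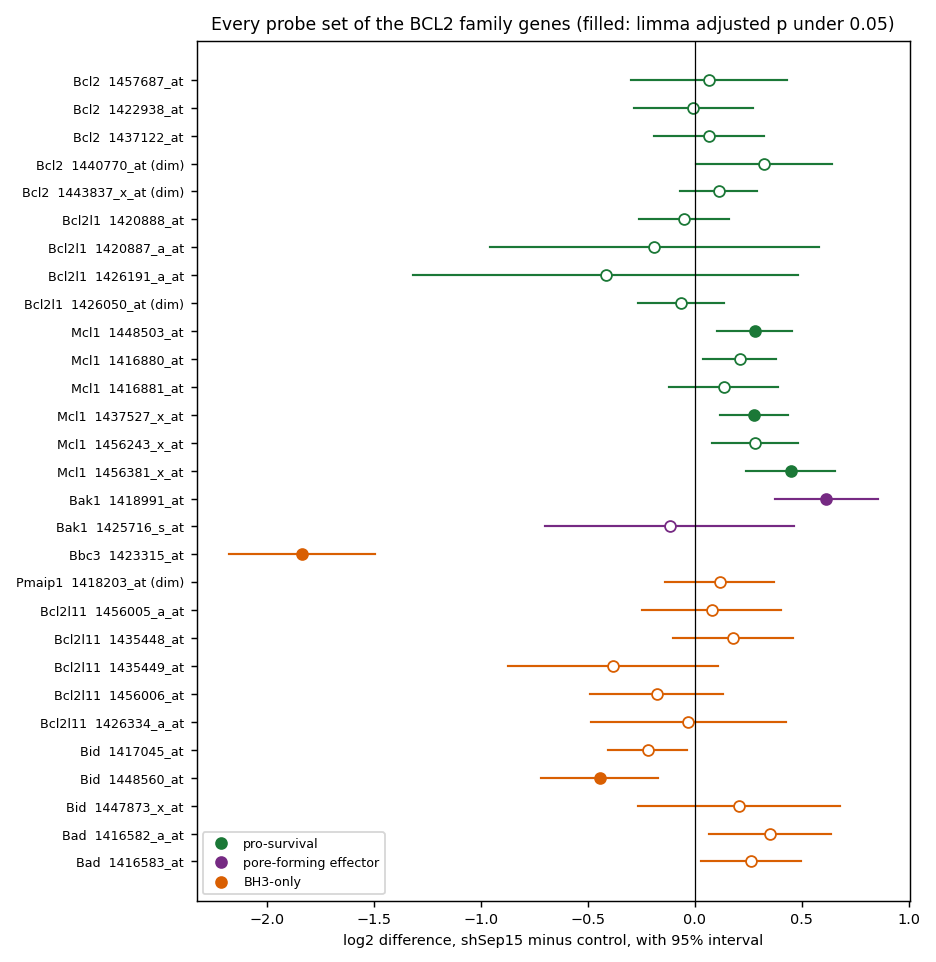
log2 differences (shSep15 minus control, x axis) of all 29 probe sets of the 9 genes with 95% intervals, coloured by role and filled where limma's adjusted p was under 0.05; "dim" marks probe sets below background in both groups. Of the 29, 6 passed: Bbc3 and 1 of Bid on the left, 3 of Mcl1 and 1 of Bak1 on the right.

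Mcl1 was the pro-survival gene that rose. Its protein is short-lived and restrains BAK, NOXA and BIM, so its level is set by constant synthesis and breakdown. Its brightest probe set read 11.81, 11.81 and 11.62 on the control arrays and 12.14, 12.01 and 11.92 on the shSep15 arrays, with no overlap. The log2 difference was 0.28 (SE 0.08, limma adjusted p = 0.0340), or 1.21-fold. All 6 probe sets of Mcl1 were higher in shSep15 cells, by 0.13 to 0.45; 3 passed the test, and in 5 the groups did not overlap. The probe set with the greatest difference read 10.27, 10.39 and 10.14 in control and 10.73, 10.61 and 10.80 in shSep15 cells (0.45, SE 0.09, limma adjusted p = 0.00782), and passed under all 12 alternatives run on probe sets. Its probes, like those of the third called probe set, are of the kind that may bind other transcripts. The third called probe set differed by 0.28 (limma adjusted p = 0.0220), and its call ended without any 1 of control 1, control 3, shSep15 2 and shSep15 3 (limma adjusted p from 0.0521 to 0.0958) and without the eBayes trend (0.0547).

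The call of the brightest Mcl1 probe set was close to the threshold. It ended without any 1 of the 3 control arrays, shSep15 1 or shSep15 2 (limma adjusted p from 0.0522 to 0.125), while its difference stayed between 0.22 and 0.31; with the mean of the 6 probe sets it passed (0.27, limma adjusted p = 0.0180). Mcl1 lies on chromosome 3, whose 542 other genes above background had a median difference of 0.26, nearly that of Mcl1, and its 20 nearest such genes had a median of 0.42, with 11 higher and 2 lower. Whether the rise of Mcl1 is separate from that of its chromosome was not tested.

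Bcl2, the founding pro-survival gene, did not differ beyond the spread of the arrays. Its brightest probe set read 8.24, 8.33 and 7.80 in control and 8.25, 8.01 and 8.30 in shSep15 cells, and the groups overlapped. The difference was 0.07 (SE 0.16, limma adjusted p = 0.849, 95% interval −0.30 to 0.43), and −0.10 without control 3. A second probe set gave a narrower interval around −0.01, from −0.29 to 0.27. Its difference was 0.04 without control 3 and 0.01 without shSep15 3. Of its 5 probe sets, 3 lay above background, and 0 of the 5 passed the test by limma (1 at an unadjusted p under 0.05, a dim one). That dim probe set passed without shSep15 3 (0.48, limma adjusted p = 0.0273), but it lay below background in both groups.

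Bcl2l1, which encodes BCL-XL and, by splicing, a shorter pro-apoptotic product, was level on its brightest probe set and split by 1 array on others. The brightest read 10.40, 10.59 and 10.70 in control and 10.45, 10.59 and 10.50 in shSep15 cells. The groups overlapped, with a difference of −0.05 (SE 0.09, limma adjusted p = 0.792, 95% interval −0.26 to 0.16), which was 0.02 without control 3. A second probe set read 8.65, 9.20 and 10.32 on the control arrays and 9.25, 9.08 and 9.28 on the shSep15 arrays. Another read 7.91, 8.21 and 9.73 in control and 8.37, 7.93 and 8.31 in shSep15 cells. On both, control 3 was far above the other 5 arrays, by 1.40 and 1.67 over the mean of the other control arrays. Their differences of −0.19 and −0.42 turned to 0.28 and 0.14 without control 3 (limma adjusted p = 0.368 and 0.685), and neither passed the test with or without it. Control 3 is also the array with high 18S ribosomal RNA signal; the part of that in the Bcl2l1 values was not tested. Whether the long and short products changed against each other cannot be read from these probe sets here.

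**Figure D3:**
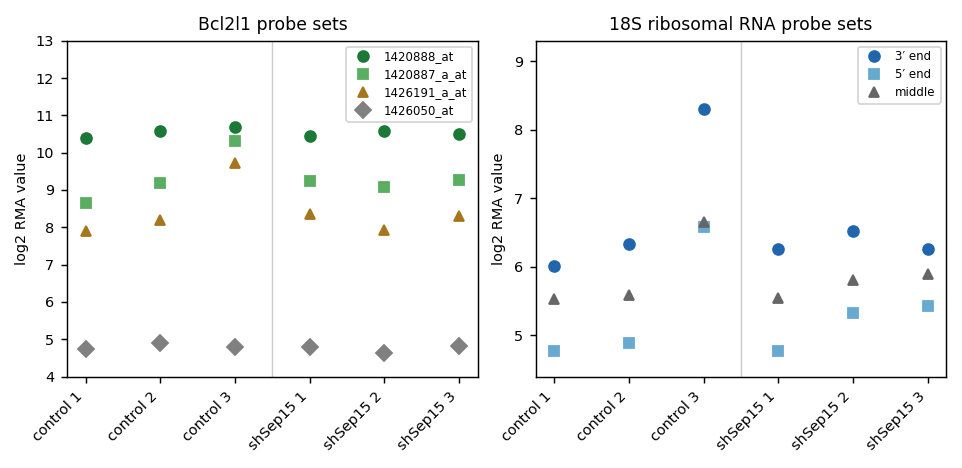
log2 RMA values of the 4 Bcl2l1 probe sets (left) and of the 3 probe sets for 18S ribosomal RNA (right) on each of the 6 arrays. On control 3, 2 Bcl2l1 probe sets reach 10.32 and 9.73, and the 3′ 18S probe set reaches 8.31, against 6.01 to 6.53 on the other arrays; the brightest Bcl2l1 probe set stays between 10.40 and 10.70 on all arrays.

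Set against each other by role, the pro-survival genes had 1 rise and 0 falls among 3 (median log2 difference 0.07), and the pro-apoptotic genes 1 rise and 1 fall among 6 (median 0.10). Neither role moved as a block. The mean deviation of the 3 pro-survival genes from the control mean was 0.14, 0.06 and 0.10 on the shSep15 arrays, against −0.11 to 0.10 on the control arrays, and these ranges overlap. The 5 pro-apoptotic genes above background averaged −0.19, −0.28 and −0.14 on the shSep15 arrays, against −0.14 to 0.12 on the control arrays. That mean was low through Bbc3: the other 4 averaged 0.22, 0.17 and 0.23 on the shSep15 arrays, above the control arrays, which lay between −0.14 and 0.09. The 4 did not rise alike. Bak1, whose rise rests on 1 probe set, stood at 0.64, 0.46 and 0.75 on the shSep15 arrays, while Bid was lower (−0.22). These means are descriptions of chosen genes and were given no test.

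The relatives of the family outside the 9 genes showed 1 clear change among the canonical ones. Bok, an effector-like member, read 8.34, 8.67 and 8.38 in control and 9.33, 9.51 and 9.24 in shSep15 cells, with no overlap. It rose by 0.90 (SE 0.13, limma adjusted p = 0.00102). Of 4 measured BH3-only and effector relatives, Bok was the 1 that passed, and of the 6 listed pro-survival relatives 2 were measured and 0 passed (limma; 0 at an unadjusted p under 0.05 as well).

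The lists that follow are read against the shares of genes above background, of which 39.2% passed the test, 19.2% higher and 20.0% lower; most list genes lie above background. Among 8 measured genes with a more distant BCL2 relation, all above background, 1 rose and 4 fell, with a median of −0.16. Bnip3, a mitophagy receptor with a BH3-like stretch, rose by 2.19 (SE 0.15, limma adjusted p = 1.81e-05), from 8.71, 8.91 and 8.74 in control to 11.17, 11.14 and 10.61 in shSep15 cells. It is also a hypoxia-inducible gene. Bcl2l15 was called lower from a control mean of 6.14, close to background, to a shSep15 mean below background, so the size of its fall cannot be read. Bcl2l13 fell by 0.57 and Bnip2 fell by 0.51. A further probe set of Bcl2l13 did not pass the test, and the call of the brightest ended without any 1 of control 2, shSep15 2 and shSep15 3 (limma adjusted p from 0.0531 to 0.0580). With the mean of probe sets, Bcl2l13 and Bnip2 lost their calls (limma adjusted p = 0.512 and 0.0798). The count of 5 called in this list was 3 without any 1 of these same arrays.

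Downstream of the mitochondrial step, 2 of 10 measured apoptosome and caspase genes rose and 1 fell, with a median of 0.13; all 10 lay above background, where 39.2% of genes passed. Casp6, an executioner caspase that cleaves lamins, read 8.36, 8.55 and 8.50 in control and 10.13, 10.01 and 10.05 in shSep15 cells. It rose by 1.60 (SE 0.10, limma adjusted p = 1.03e-05) and lies on chromosome 3, like Mcl1. Averaged over the Casp6 probe sets, of which only the brightest lay above background, the difference was 0.91 (limma adjusted p = 0.000153). Casp2 rose by 0.37 close to the threshold (limma adjusted p = 0.0491), and the call ended without any 1 of control 2, control 3 and the 3 shSep15 arrays (0.0908 to 0.150) and when arrays were shifted to the same median (0.0687) or the eBayes trend was dropped (0.0522). Aifm1, a flavoprotein of the mitochondrial intermembrane space, fell by 0.57 (limma adjusted p = 0.000922).

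**Figure D4:**
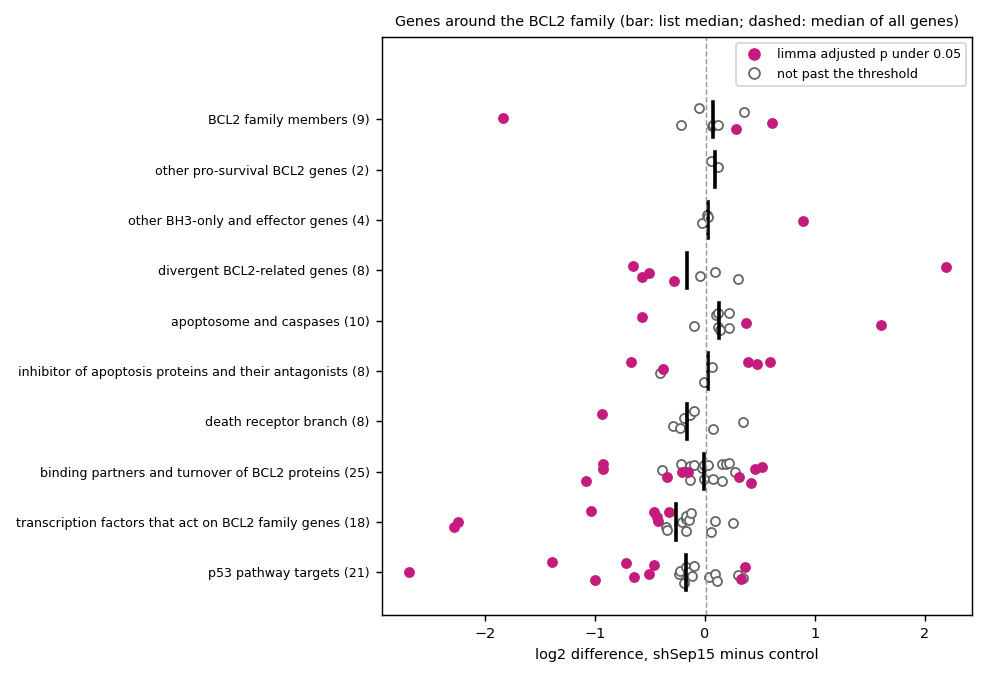
log2 differences (shSep15 minus control, x axis) of the 9 BCL2 family genes and of the genes in 9 lists around them, 1 point per gene, filled where limma's adjusted p was under 0.05; bars are list medians, and the number of measured genes is in brackets. The list of transcription factors has 7 genes past the threshold, all on the left, whereas the BCL2 family has 1 on the left and 2 on the right. The lists were chosen with earlier results of these data known.

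The inhibitors of apoptosis proteins, which hold caspases in check, and the mitochondrial proteins that displace them gave 3 rises and 2 falls among 8 measured genes (median 0.03), where 19.2% and 20.0% of genes above background rose and fell. Xiap, the inhibitor that binds caspases directly, fell by 0.67 (SE 0.12, limma adjusted p = 0.00299), while its antagonists Htra2 and Diablo rose by 0.59 and 0.40 and the giant inhibitor Birc6 by 0.48. For Xiap, 1 of its 2 other probe sets above background was called lower too, and averaging over probe sets gave −0.40. The call of Diablo ended without any 1 of control 2, control 3 and the 3 shSep15 arrays (limma adjusted p from 0.0503 to 0.0725) and with the mean of its probe sets (0.195), and that of Birc6 without any 1 of control 1 and the 3 shSep15 arrays (0.0556 to 0.114). The 5 calls of this list became 2 without any 1 of the 3 shSep15 arrays and 3 without control 1.

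In the death receptor branch 1 of 8 measured genes passed the test, against 39.2% of genes above background. Cflar, which encodes the caspase-8 inhibitor FLIP, read 10.88, 10.75 and 10.43 in control and 9.82, 9.60 and 9.84 in shSep15 cells. It fell by 0.93 (SE 0.13, limma adjusted p = 0.000798), and its 3 other probe sets above background were called the same way.

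Of 25 partners and regulators of BCL2 proteins, 4 rose and 6 fell, with a median of −0.01. With 24 of the 25 above background, that share was near the 39.2% of all such genes. Pim1 and Pim3, kinases that phosphorylate BAD, were lower: Pim1 fell by 1.08 (limma adjusted p = 0.00308) and Pim3 fell by 0.92 (limma adjusted p = 0.000273). Usp9x, a deubiquitinase that stabilises the MCL1 protein, fell by 0.93 (SE 0.11, limma adjusted p = 0.000357), and 5 of its 6 other probe sets above background were called the same way. Bag1, a co-chaperone that binds BCL2, rose by 0.52 (limma adjusted p = 0.00109). Without shSep15 2 the number of calls in this list went from 10 to 6.

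Upstream, the transcription factors known to act on BCL2 family genes fell or did not pass the test: of 18 measured, 0 rose and 7 fell, against 12.2% and 12.8% of all genes and 19.2% and 20.0% of those above background, as 16 of the 18 were. Trp53, the gene of p53, and Nfkb1 were also listed but were not among the genes measured, so their levels are not known here. The share called in either direction was near the 39.2% of all genes above background. This list was drawn up with earlier results of these data known, so the count is not independent evidence of a direction. The median was −0.26, and by limma 1 gene, Foxo4, was higher at an unadjusted p under 0.05. Egr1 fell by 2.28, Ddit3 fell by 2.24, Myc fell by 1.03 and Atf4 fell by 0.46 (limma adjusted p = 0.000899, 1.64e-06, 0.000854 and 8.65e-05). Ddit3 encodes CHOP, a factor of the unfolded protein response that induces Bcl2l11 and Bbc3 in some cells. It read 12.07, 12.25 and 12.07 in control and 9.72, 9.92 and 10.01 in shSep15 cells. A further Ddit3 probe set did not pass in this direction, nor did 2 further ones of Atf4, and the mean of probe sets gave Ddit3 −1.36 (limma adjusted p = 8.43e-05) and Atf4 −0.16 (limma adjusted p = 0.286). The 3 FOXO factors of the list, singled out after their values were seen because of the letters in the promoter stretches above, did not share a direction. Foxo3 read 8.79, 8.66 and 8.65 in control and 8.28, 8.30 and 8.24 in shSep15 cells (−0.43, limma adjusted p = 0.0156). Foxo1 differed by −0.36 (limma adjusted p = 0.0917) and Foxo4 by 0.26 (limma adjusted p = 0.150), and neither passed the test.

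Among 21 measured targets of the p53 pathway outside the family, 7 fell and 2 rose, with a median of −0.17; 19 lay above background, where 20.0% of genes fell and 19.2% rose. Gadd45a, which acts in growth arrest, fell by 2.69, the kinase Plk2 fell by 1.39, the damage-binding protein Ddb2 fell by 1.00 and the stress protein Trp53inp1 fell by 0.72 (limma adjusted p at most 0.00765). The mean of probe sets, of which only the brightest lay above background, gave Plk2 −0.84 (limma adjusted p = 0.000270). Thus Bbc3 fell in the same samples as part of this list, and 12 of its 21 genes did not pass the test. The list of the p53 pathway was drawn up with earlier results of these data known, and its count is not independent evidence of a direction.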

How the data were processed

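For each of 6 Affymetrix mouse arrays the authors deposited log2 values made with RMA (background correction, normalization between arrays, 1 summary for every probe set); RMA is named in the submitters' processing notes, its version not given in the sources used here. Values ran from 3.31 to 14.24, with array medians of 5.83 to 5.87. From the 45101 probe sets, 64 array controls were removed. The platform annotation gave 34945 of the other 45037 a single symbol, 932 several and 9160 none. Of the 34945, 34741 were matched by gene identifier to RefSeq (GRCm38.p6), whose symbol was then used.

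All probe sets were fitted with limma 3.58.1 in R 4.3.3 (lmFit, eBayes with an intensity trend, group as the only term, two-sided) and adjusted by Benjamini-Hochberg over 45037 probe sets, after a test on simulated data. Differences are shSep15 minus control. A gene was read by its brightest probe set. The members, the 9 gene lists and the rule for named genes (all members, Selenof, up to 4 called genes per list by size, 5 genes most like the leading member) were chosen with earlier results of these data known; genes named beyond it are marked or only mentioned as markers. Alternatives were 13: array shift, quantile normalization, probe set mean, no trend, a filter on dim probe sets, array weights, a replicate block and each array left out. RMA values have no detection call, and the 3 arrays per group limit the precision. In bulk samples fewer cells of a type and less RNA per cell cannot be told apart.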

Additional observations from a re-analysis of the deposited data

How the results depend on the processing

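Bbc3 was the 1 family gene called lower under all 13 alternatives. The number of family genes called higher was 2, and 1 when arrays were shifted to the same median, without the eBayes trend and with array weights, each through Mcl1 (limma adjusted p = 0.0544, 0.0943 and 0.0516); leaving out 1 array gave 1 to 2. With the mean of probe sets the 2 were Mcl1 and Bad, not Bak1. The number of family probe sets called, 6, was 3 to 6 with 1 array left out. It was 8 with quantile normalization, 7 with dim probe sets left out and 4 without the eBayes trend. Leaving out 1 array gave 3 to 5 calls among divergent relatives, 2 to 4 among inhibitors of apoptosis and their antagonists, and 6 to 9 among binding partners, against 5, 5 and 10. Divergent relatives had 2 calls with the mean of probe sets, and the death receptor branch 2 in place of 1 with dim probe sets left out. Selenof differed by −2.92, and by −1.47 with the mean of its bright and its dim probe set. Median shifts of all probe sets by scaling were at most 0.01.

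The repeat numbers of the titles were shared by both groups, but same-numbered arrays deviated together in 1 of 3 pairs (r = 0.39, −0.20 and −0.05), so they were not taken to pair the samples. With the replicate block 6 family probe sets were called, and the differences of Bbc3 (−1.84), Bak1 and Mcl1 kept their calls. Signs of uncalled family genes near 0 (Bcl2, Bcl2l1, Bcl2l11 and Pmaip1) turned without 1 array or with another probe set rule. Dim probe sets have compressed differences, which limits Pmaip1 and 3 of the Bcl2 and Bcl2l1 probe sets.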
